A study of Mus musculus with 12 samples.

Results

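The integrated stress response and the enzymes that make serine and feed 1-carbon units into mitochondrial folate were examined in mouse heart muscle as 10 genes: Mthfd2, Shmt2, Phgdh, Psat1, Psph, Asns, Atf4, Ddit3, Trib3 and Casp12. They are 10 of the 12393 genes that have a probe set of their own on the arrays. The set was put together with earlier results of the same arrays in view, among them the mdx minus control values of Mthfd2. All mdx minus control values of these 10 genes are therefore a description, and p-value counts given for them are not tests. The genes have 23 probe sets annotated to them alone, and 17 of these had a mean signal of at least 100 over the 12 arrays and entered the fit. Each gene is represented by its brightest probe set, and all 10 genes have one that was tested.

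Total RNA from cardiac muscle was hybridised to 12 Affymetrix MOE430A arrays, 3 for each of 4 groups: control hearts at 8 weeks, mdx hearts at 8 weeks, control hearts at 10.5 months and mdx hearts at 10.5 months. The mdx mouse carries a mutation in Dmd, the dystrophin gene, in every cell and is a widely used mouse model for Duchenne muscular dystrophy. The controls are wild type, per the series title. Strain, sex and the number of animals behind each array are not given in the sources used here, so the p-values measure the spread between arrays, which may be technical. Values are scaled signals, in arbitrary units, after each array was set to a trimmed mean of 500, and differences are of log2(signal + 32) with the standard error of the fit.

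The labels were checked on the mutated gene. The brightest Dmd probe set read 159 to 286 on the 6 mdx arrays and 607 to 839 on the 6 control arrays. A keyword of the sample records names extraocular muscle, while source and title name heart. All 8 cardiac markers were detected, with summed signals of 136776 to 435948 per array, and the skeletal myosins Myh1, Myh2, Myh3, Myh4 and Myh8 stayed at 189 or below on every array. Of the 12 listed extraocular and skeletal muscle markers 11 were measured, and Myh13 had no probe set of its own. Among the others Ckm read 15141 to 37219 and Atp2a1 176 to 334, while Actn3, Tnnt3, Tnni2 and Mylpf stayed at 140 or below. The range of signal was wider on 4 arrays, whose 99th percentile was 13583 to 17707 against at most 10932 on the other 8: control replicate 2 at 8 weeks, mdx replicates 1 and 2 at 8 weeks, and mdx replicate 3 at 10.5 months. Without them mdx hearts at 8 weeks keep 1 array, replicate 3, which the fit then takes to vary like the other groups. Mdx replicate 3 at 10.5 months also had the highest actin 3'/5' ratio, 1.44 against at most 1.29. Replicates of a group correlated at 0.948 to 0.982.

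Cells that lack amino acids, carry misfolded proteins or have impaired mitochondria phosphorylate the initiation factor eIF2, which lowers general translation and raises translation of the transcription factor ATF4. ATF4 in turn activates genes of amino acid supply, among them asparagine synthetase, the serine pathway and the mitochondrial folate enzyme MTHFD2, and with prolonged stress also CHOP, the product of Ddit3. Because ATF4 is controlled largely at translation, its mRNA on an array is not a measure of its activity. In striated muscle the programme is known above all from mitochondrial disease models.

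ATF4 binds with C/EBP family partners to a composite element whose core is written TGATGNAA. The promoter windows that hold this letter run are shown because they are the members whose start region carries the known core. Of the 10 genes, 2 matched in the 300 bases from 250 before to 50 after the start (RefSeq, GRCm38.p6), on either strand, and capitals mark the match. The Asns window is chr6:7693160-7693459 on the minus strand, with the match on the strand of the gene. The Trib3 window is chr2:152344011-152344310, also on the minus strand, with the match on the strand opposite to the gene. The bases printed are those of the strand of the gene, so the match appears there as the reverse complement of the core.
Asns: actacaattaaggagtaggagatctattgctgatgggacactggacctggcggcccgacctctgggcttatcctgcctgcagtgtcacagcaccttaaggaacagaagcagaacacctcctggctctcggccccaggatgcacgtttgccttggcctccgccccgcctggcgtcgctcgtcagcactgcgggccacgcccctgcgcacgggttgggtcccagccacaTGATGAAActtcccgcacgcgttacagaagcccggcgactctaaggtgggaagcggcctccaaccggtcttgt
Trib3: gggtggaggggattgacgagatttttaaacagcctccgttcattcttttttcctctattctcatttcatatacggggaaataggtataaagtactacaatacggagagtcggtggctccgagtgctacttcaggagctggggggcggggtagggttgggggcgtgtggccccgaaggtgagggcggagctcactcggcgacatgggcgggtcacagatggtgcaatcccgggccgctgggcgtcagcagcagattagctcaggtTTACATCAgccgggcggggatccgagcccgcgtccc
The run occurs in 3.97% of all 32851 windows of the same length and in 4.51% of 27025 genes with a window. A match is a description of the letters and not a binding site shown by data. The other 8 genes do not have these letters in the window, which says nothing of the factor.

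Mthfd2 encodes the mitochondrial enzyme that oxidises methylene-tetrahydrofolate, and it is low in most adult tissues. Its signal was 223, 182 and 198 in control hearts at 8 weeks and 320, 266 and 431 in mdx hearts of that age. At 10.5 months it was 206, 191 and 228 in control hearts and 355, 357 and 397 in mdx hearts. Every mdx array lay above every control array at both ages, which held for 47 of the 8852 tested genes (0.531%). The means were 201 ± 20.6 and 339 ± 83.9 (SD, n = 3) at 8 weeks, a log2 difference of 0.65 ± 0.17 or 1.57-fold. At 10.5 months they were 208 ± 18.8 and 370 ± 24.0 (SD, n = 3), a log2 difference of 0.74 ± 0.17 or 1.67-fold. Both controls, the lowest groups, lay within each other's spread, as did both mdx groups. Without the 4 arrays of wide signal range the Mthfd2 difference at 10.5 months was 0.69. At 8 weeks it was 0.94, which sets 1 mdx array, replicate 3 with the highest Mthfd2 signal of all 12 arrays, against 2 controls.

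The second Mthfd2 probe set read 128, 140.0 and 137 in control hearts and 264, 279 and 171 in mdx hearts of 8 weeks. In the older hearts it read 114, 83.8 and 107 against 226, 252 and 242. The groups again did not overlap at either age, and the Mthfd2 differences on this probe set were 0.67 ± 0.17 and 1.03 ± 0.17. Over the 12 arrays the log2 signals of both probe sets correlated at 0.73, a description that includes the group differences. They differed in which mdx array at 8 weeks was extreme, since replicate 3 was the highest on the first and the lowest on the second.

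In whole tissue, more RNA per cell and more cells of a type cannot be told apart. All 8 fibroblast markers were detected, and their summed signal, in which Dcn is the largest term, was 16985 to 20249 in control and 21933 to 24923 in mdx hearts at 8 weeks, then 20234 to 20848 and 22525 to 30697 at 10.5 months. Taken singly, 0 of the 8 stood apart between mdx and control hearts at 8 weeks, and 4 did at 10.5 months (Col3a1, Lum, Dpt and Mfap5, all higher in mdx). Macrophage markers (8 of 8 detected) summed to 8448 to 10424 and 9781 to 11504 at 8 weeks and to 7400 to 10233 and 8923 to 13439 at 10.5 months, with overlap at both ages. As single markers, Tyrobp was higher in mdx hearts at 8 weeks without overlap, and Cd163 was lower without overlap at both ages. Markers of proliferating cells, in which Mthfd2 is known to be high, had Pcna as the largest term. Of the 7 measured, 5 had a mean of at least 100. Their sum was 2576 to 2764 in control and 1952 to 2416 in mdx hearts at 8 weeks, then 2310 to 2826 and 2573 to 3557 at 10.5 months. Smooth muscle and pericyte markers summed to 14036 to 17306 in control and 12219 to 18689 in mdx hearts at 8 weeks, then 12414 to 13813 and 14622 to 15666 at 10.5 months. In the older mdx hearts Acta2 and Tagln were higher without overlap, and Myh11 and Pdgfrb were lower. At 8 weeks Acta2 was lower in mdx hearts. Atrial markers (4 of 4 detected), with Nppa as the largest term, summed to 4193 to 6291 in control and 11848 to 12578 in mdx hearts at 8 weeks. At 10.5 months they summed to 4926 to 22195 and 11587 to 18087. Taken singly, 3 of the 4 were higher in mdx hearts without overlap at 8 weeks and 0 at 10.5 months. Control hearts at 10.5 months spread widely, from 131 to 3554 for Myl7 and from 9.13 to 2242 for Sln. The part of these cells in the Mthfd2 values was not tested.

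**Figure D1:**
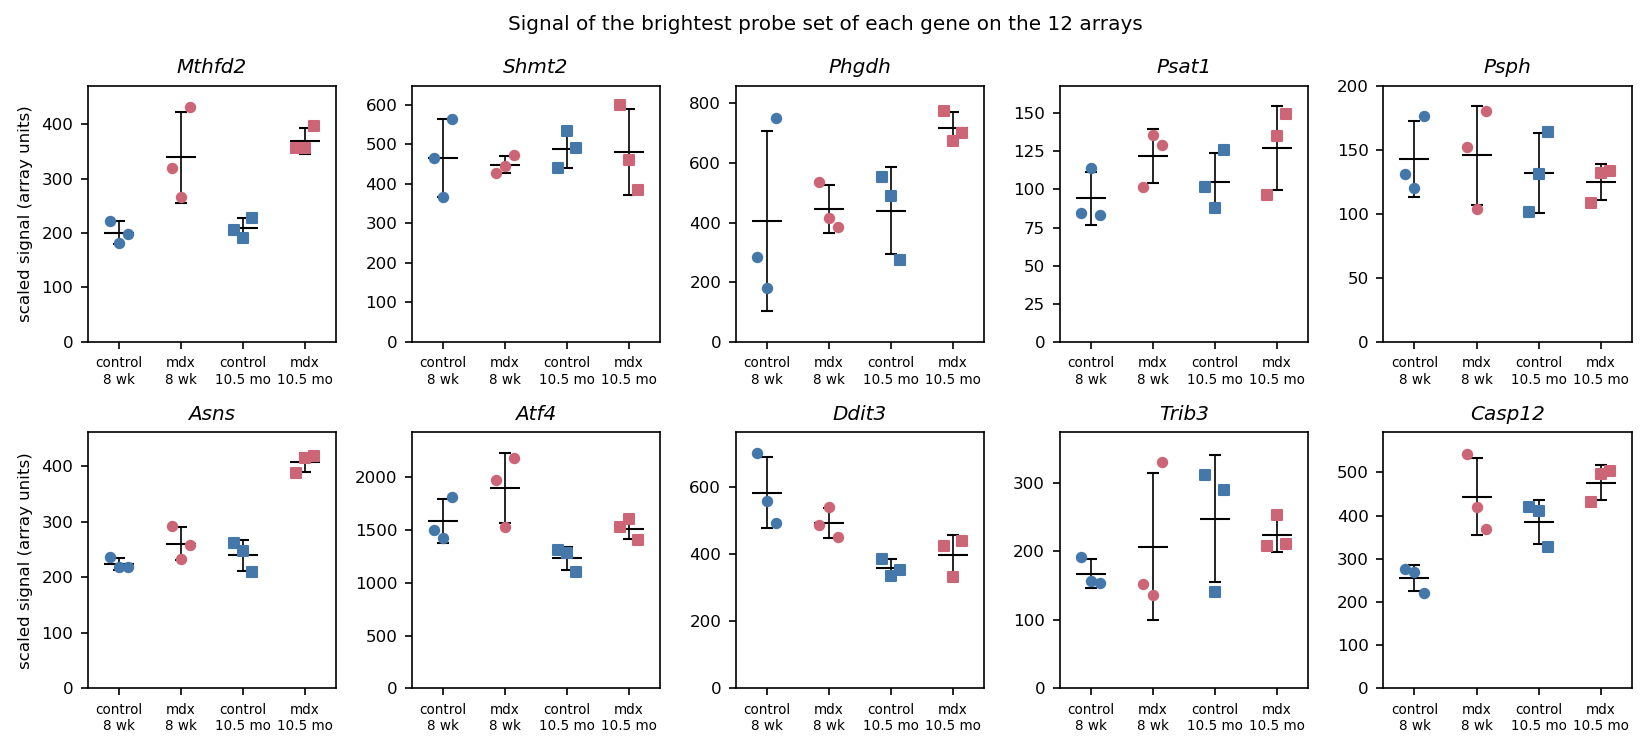
Scaled signal (linear axis from 0, arbitrary units) of the brightest probe set of each of the 10 genes, with a point per array and the mean and SD of the 3 arrays of each group. Mthfd2 separated mdx from control arrays at both ages, while Asns reached 388 to 419 only in mdx hearts at 10.5 months among the 4 groups.

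Asns, which makes asparagine from aspartate and glutamine, had a signal of 236, 218 and 218 in control and 292, 233 and 258 in mdx hearts of 8 weeks. At 10.5 months the signals were 262, 248 and 209 in control and 388, 415 and 419 in mdx hearts. The groups overlapped narrowly at 8 weeks and stood apart at 10.5 months. The log2 differences were 0.19 ± 0.14 at 8 weeks and 0.70 ± 0.14 at 10.5 months, 1.14-fold and 1.62-fold. Asns had the most positive change of that difference with age among the 10 genes, 0.51 ± 0.20.

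Phgdh catalyses the first step of serine synthesis from 3-phosphoglycerate. Its brightest probe set read 285, 182 and 751 in control and 536, 415 and 387 in mdx hearts at 8 weeks, and 554, 490.5 and 276 in control and 776, 674 and 701 in mdx hearts at 10.5 months. Control replicate 3 at 8 weeks was the second highest of all 12 arrays. The Phgdh difference at 8 weeks was 0.33 ± 0.37 and moved between -0.07 and 0.86 when 1 array was left out, the latter without control replicate 3; without the 4 arrays of wide signal range, which leaves 1 mdx array of that age, it was -0.25. At 10.5 months it was 0.72 ± 0.37 with no overlap of the groups, and 0.43 without control replicate 3 of that age. Dimmer Phgdh probe sets, with means of 91.5, 59.7 and 41.9, lay under the filter and were not tested. On each of them the mdx and control groups overlapped at both ages. Another 2 probe sets are annotated to Phgdh together with predicted genes and were not used, so signal from near-identical copies in the Phgdh values is uncertain.

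Psat1, the transaminase of the next step, read 83.3 to 114 in control and 102 to 135 in mdx hearts at 8 weeks, and 88.1 to 126 and 96.6 to 149.7 at 10.5 months. Its differences were 0.29 ± 0.18 and 0.21 ± 0.18, with overlapping groups and a signal close to the minimum of 100. A second Psat1 probe set had a mean of 57.3, under the filter, and was not tested. It read 27.6 to 45.6 in control and 63.1 to 73.7 in mdx hearts at 10.5 months, and its groups overlapped at 8 weeks. Psph, the phosphatase that releases serine, read 121 to 177 in control and 104 to 181 in mdx hearts at 8 weeks, and 102 to 164 and 109 to 134 at 10.5 months, with differences of 0.01 ± 0.20 and -0.05 ± 0.20. Shmt2, the mitochondrial enzyme that splits serine to glycine and loads folate just before the MTHFD2 step, read 368 to 563 and 428 to 472 in control and mdx hearts at 8 weeks, and 439 to 534 and 383 to 599 at 10.5 months. The Shmt2 differences were -0.03 ± 0.18 and -0.04 ± 0.18. Its other 3 tested probe sets gave -0.21, 0.28 and 0.42 at 8 weeks and -0.29, -0.27 and -0.17 at 10.5 months, so the 4 Shmt2 probe sets disagreed in sign at 8 weeks. Along the route from 3-phosphoglycerate to mitochondrial folate, the mdx values lay above control without overlap at both ages only at Mthfd2 among the 5 enzymes measured. The Mthfd2 values were in view when the set was put together, so this is a description.

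Atf4 itself had signals of 1503, 1427 and 1818 in control and 1973, 1531 and 2187 in mdx hearts of 8 weeks. At 10.5 months they were 1312, 1280 and 1106 in control and 1532, 1605 and 1403 in mdx hearts. The groups overlapped at 8 weeks and did not at 10.5 months. The Atf4 differences were 0.25 ± 0.16 and 0.29 ± 0.16, and its second tested probe set gave 0.37 ± 0.26 and 0.46 ± 0.26.

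Ddit3, which encodes the stress factor CHOP, read 699, 557 and 490.3 in control and 486, 539.8 and 450.2 in mdx hearts of 8 weeks. At 10.5 months it read 385, 333 and 352 against 424, 329.7 and 437. The Ddit3 groups overlapped at both ages, with differences of -0.22 ± 0.16 and 0.14 ± 0.16. Trib3, a pseudokinase that is induced by ATF4 and CHOP and damps their activity, read 154 to 192 in control and 137 to 329.7 in mdx hearts of 8 weeks. In the older hearts it read 141 to 311 and 208 to 253. The Trib3 differences were 0.17 ± 0.29 and -0.07 ± 0.29, and the first became -0.17 without mdx replicate 3 at 8 weeks. Its second probe set gave 0.92 ± 0.29 and 0.06 ± 0.29, with a signal of 33.5 to 96.5 in control and 107 to 234 in mdx hearts at 8 weeks, so the Trib3 probe sets gave unlike sizes at that age.

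Casp12 encodes a caspase of the endoplasmic reticulum in rodents. Its brightest probe set read 276, 269 and 221 in control and 543, 419 and 369 in mdx hearts at 8 weeks, then 420, 411 and 327 against 431, 495 and 503 at 10.5 months. The mdx arrays lay above the control arrays at both ages, by a log2 difference of 0.72 ± 0.17 (1.64-fold) at 8 weeks and 0.29 ± 0.17 (1.22-fold) at 10.5 months. The control mean was 255 ± 30.2 at 8 weeks and 386 ± 51.3 at 10.5 months (SD, n = 3), and the mdx means were 444 ± 89.5 and 477 ± 39.7. The second Casp12 probe set, at 104 to 175 against 115 to 275 at 8 weeks and 286 to 351 against 211 to 454 at 10.5 months, had overlapping groups and differences of 0.17 ± 0.30 and 0.11 ± 0.30.

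Over the 10 genes, the mdx minus control difference at 8 weeks was above 0 for 8, against 48.3% of all 8852 genes, and had a median of 0.22 against -0.01 over all genes. At 10.5 months it was above 0 for 7, against 46.1% of all genes, with a median of 0.25 against -0.02. Groups stood apart with mdx higher for 2 of the 10 at 8 weeks, Mthfd2 and Casp12, and for 5 at 10.5 months, Mthfd2, Asns, Phgdh, Atf4 and Casp12. The same pattern was found in 9.53% and 7.93% of all genes. No support for the 10 genes can be drawn from the limma counts that follow. With an adjusted p below 0.05 in limma, 1 of the 10 was called at 8 weeks, Casp12, where 2.15% of all genes were called, and 0 at 10.5 months, where 0.0678% were called. The count at 8 weeks was 0 in 13 of the 22 alternatives; Casp12 was called in 4 and Mthfd2 in 5. At 10.5 months it was 1, Mthfd2, when the probe sets of a gene were averaged. An unadjusted p below 0.05 was found for 2 of the 10 at each age, against 17.7% of all genes at 8 weeks and 7.34% at 10.5 months. Since the set was chosen on these comparisons, the counts describe it and carry no test.

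**Figure D2:**
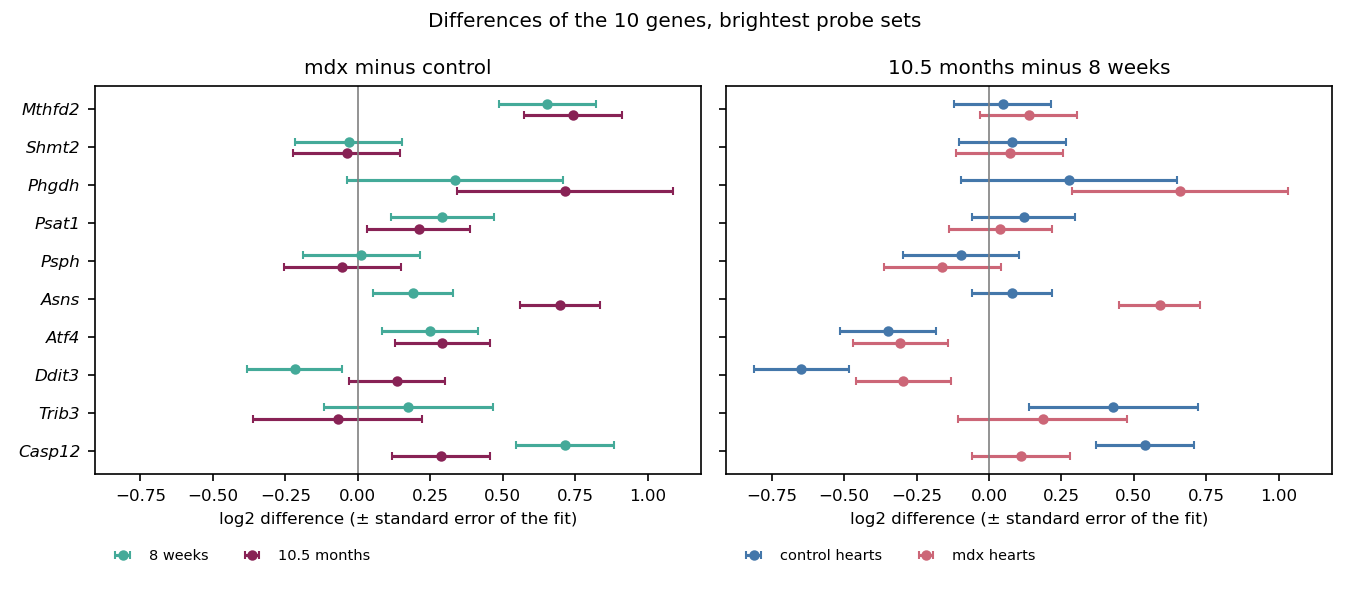
Log2 differences of the brightest probe set of each gene with the standard error of the fit, for mdx minus control at each age and for 10.5 months minus 8 weeks in each genotype. Mthfd2 lay at 0.65 and 0.74 for mdx minus control, Casp12 at 0.72 and 0.29, and Asns at 0.19 and 0.70.

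**Figure D3:**
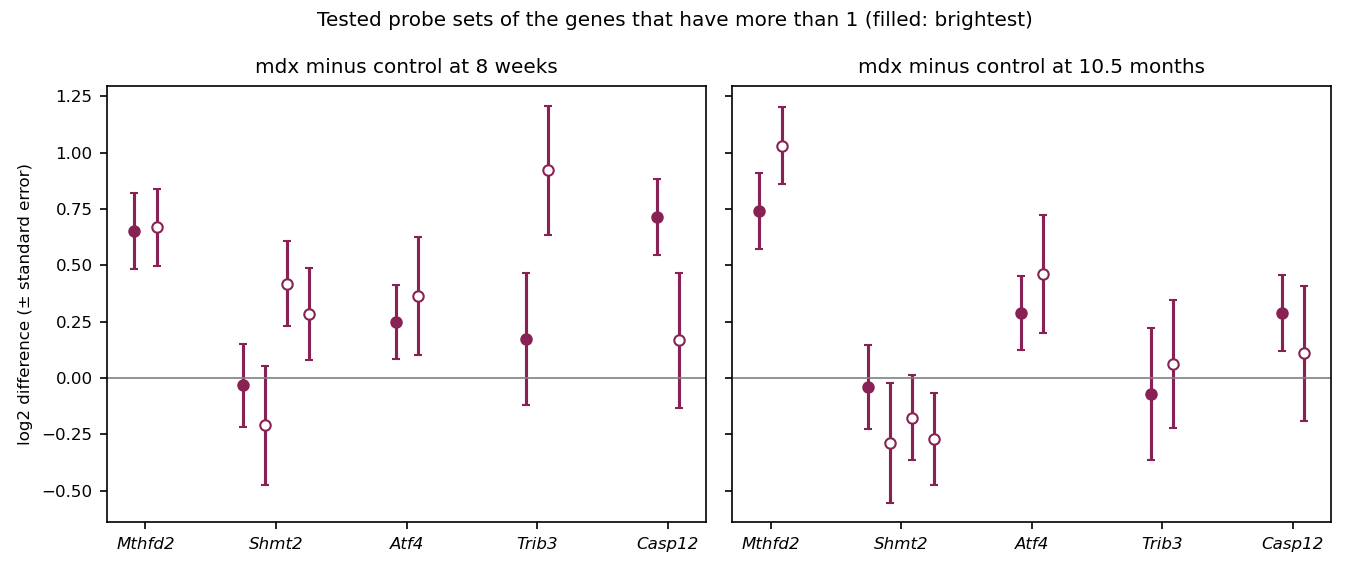
Log2 differences for mdx minus control of every tested probe set of the 5 genes with more than 1, with the standard error of the fit and the brightest probe set filled. Both Mthfd2 probe sets lay above 0 at both ages, while the 4 Shmt2 probe sets lay on both sides of 0 at 8 weeks.

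The genes were chosen with mdx minus control values in view, and whether age differences were also in view cannot be told. The comparison of ages within a genotype uses the same arrays, so its tests are not independent of that choice. The older mdx arrays, for example, enter both this comparison and the mdx minus control values at 10.5 months. In mdx hearts Asns rose from 261 ± 29.3 at 8 weeks to 407 ± 17.0 at 10.5 months (SD, n = 3), with every older array above every younger one. The log2 difference was 0.59 ± 0.14, with an adjusted p of 0.019 in limma, and Asns was the only 1 of the 10 genes called, where 11.3% of all genes were called. The Asns call was lost with only the mdx arrays in the fit (adjusted p = 0.0807 in limma), without mdx replicate 2 at 8 weeks (0.0541), without mdx replicate 2 (0.0673) or 3 (0.0517) at 10.5 months, and without the 4 arrays of wide signal range (0.0959), where 1 younger mdx array is left. Over all 22 alternatives the adjusted p ran from 0.0128 to 0.0959 in limma. In control hearts Asns differed by 0.08 ± 0.14 (adjusted p = 0.865 in limma). A second Asns probe set had a mean of 49.6, under the filter, and was not tested. It averaged 70.3 at 8 weeks and 65.3 at 10.5 months in mdx hearts, without a rise, and 40.0 and 22.7 in control hearts.

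Mthfd2 differed with age by 0.05 ± 0.17 in control and 0.14 ± 0.17 in mdx hearts, with adjusted p of 0.939 and 0.621 in limma. The mdx value was -0.25 without the 4 arrays of wide signal range, but this sets the single younger array with the highest signal against 2 older ones. Ddit3 was lower in the older hearts without overlap in both genotypes, by -0.65 ± 0.16 in control (adjusted p = 0.163 in limma) and -0.30 ± 0.16 in mdx (0.243), which did not pass the test. Atf4 had differences of -0.35 ± 0.16 and -0.31 ± 0.16 (adjusted p = 0.416 and 0.225 in limma), again without a call, and its control groups did not overlap. Casp12 was 0.54 ± 0.17 higher in older control hearts, without overlap, but not called (adjusted p = 0.235 in limma), and 0.11 ± 0.17 higher in mdx hearts (0.702). Its second probe set gave 1.01 ± 0.30 and 0.95 ± 0.30, with adjusted p of 0.216 and 0.056 in limma. Phgdh in mdx hearts differed by 0.66 ± 0.37 (adjusted p = 0.251 in limma) with the groups apart.

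Psat1, Psph, Shmt2 and Trib3 gave age differences of 0.12, -0.10, 0.08 and 0.43 in control and 0.04, -0.16, 0.07 and 0.18 in mdx hearts, all with an adjusted p of at least 0.6 in limma. The second Trib3 probe set was 0.59 ± 0.29 higher in older control hearts (adjusted p = 0.434 in limma). One dimmer Shmt2 probe set passed the test in mdx hearts (-0.79 ± 0.19, adjusted p = 0.021 in limma). It read 142, 109 and 191 at 8 weeks and 67.2, 67.3 and 76.2 at 10.5 months. Its mean over all arrays, 100.6, lay just above the filter for the mean signal. Group means were 102 in control and 147 in mdx hearts at 8 weeks, then 83.3 and 70.2 at 10.5 months. Its entry to the test thus leaned on the younger mdx hearts, and the call is not independent of the filter. The other 3 Shmt2 probe sets gave 0.07, -0.02 and -0.43. In control hearts 0 of the 10 genes were called, against 0.158% of all genes, and 2 had an unadjusted p below 0.05, against 11.8% of all genes. Ages stood apart in control hearts for Casp12, which was higher with age, and for Atf4 and Ddit3, which were lower, where 12.3% and 11.3% of all genes were apart upwards and downwards. In mdx hearts Asns and Phgdh were apart upwards and Ddit3 downwards, against 15.5% and 15.6% of all genes.

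The genes around these 10 were examined as 8 lists with 154 genes, of which 117 were tested and none is one of the 10. For mdx minus control, 0 of the 117 were called at 8 weeks and 0 at 10.5 months by limma, with 21 and 10 at an unadjusted p below 0.05. Those are 17.9% and 8.55% of the list genes, against 17.7% and 7.34% of all genes. At 8 weeks up to 3 were called under the alternatives, 3 without mdx replicate 1 and 2 without mdx replicate 3 of that age. At 10.5 months 0 were called under every alternative.

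The other ATF4 targets and partners (22 tested of 32) had median differences of -0.06 at 8 weeks and 0.03 at 10.5 months. Atf3, Fgf21, Gdf15, Sesn2 and Slc7a11 are among the listed genes that were not tested, so these medians do not cover them. Cebpb, a C/EBP partner of ATF4, had the smallest p of that list at both ages, with -0.62 ± 0.20 (adjusted p = 0.125 in limma) and -0.81 ± 0.20 (0.365). Its signal was 1225, 1044 and 1179 in control and 556, 757 and 628 in mdx hearts at 10.5 months, without overlap. The 15 genes of the eIF2 kinases, phosphatase subunits and eIF2B had medians of -0.02 at both ages, and Dele1, whose product passes mitochondrial stress to an eIF2 kinase, differed by -0.62 ± 0.14 at 10.5 months (adjusted p = 0.279 in limma), at 1616, 1540.2 and 1473 against 1141, 960.1 and 881. The 30 genes of endoplasmic reticulum chaperones and the unfolded protein response had medians of 0.02 and 0.04, and the 12 of mitochondrial chaperones and proteases -0.16 and 0.05.

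The other folate and 1-carbon genes (9 tested of 19) had medians of -0.28 and -0.05. Ggh, which trims the glutamate tail of folates, was nearest to a call at 8 weeks, at 183, 184 and 177 in control and 227, 309 and 294 in mdx hearts (0.52 ± 0.14, adjusted p = 0.0759 in limma). The 8 tested genes of glycine, serine and methionine metabolism had medians of 0.06 and 0.00. Of the 18 aminoacyl-tRNA synthetases, which charge tRNAs and include known ATF4 targets, the medians were -0.17 and 0.01. Yars, the tyrosyl enzyme, had 327, 319.6 and 277 in control and 553, 721 and 693 in mdx hearts at 10.5 months, 1.01 ± 0.22 with an adjusted p of 0.266 in limma. Farsa, a subunit of the phenylalanyl enzyme, had -0.93 ± 0.24 at 8 weeks (adjusted p = 0.0622 in limma). Its signals were dim, at 121, 140.3 and 120 in control and 91.9, 26.4 and 48.6 in mdx hearts. The 5 tested caspases other than Casp12 had medians of 0.16 and -0.08.

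With age in mdx hearts, 12 of the 117 list genes were called, 5 higher and 7 lower, which is 10.3% against 11.3% of all genes. Of all genes 5.68% were called higher and 5.59% lower. This count was 4 with only the mdx arrays in the fit and ran from 5 to 12 when 1 array was left out, lowest without mdx replicate 2 at 10.5 months. It was 7 without mdx replicate 2 at 8 weeks, 7 without mdx replicate 3 and 8 without mdx replicate 1 at 10.5 months, and 5 without the 4 arrays of wide signal range, with 1 younger mdx array left. In control hearts 0 were called, against 0.158% of all genes, and 0 under every alternative. An unadjusted p below 0.05 was found for 16, which is 13.7% against 11.8% of all genes.

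Among the synthetases 3 rose and 2 fell in mdx hearts with age. Hars, the histidyl enzyme, rose from 329, 205.0 and 328 to 543, 506 and 646 (0.92 ± 0.18, adjusted p = 0.00931 in limma). Sars, the seryl enzyme, rose from 599, 605 and 988 to 1385, 1307 and 1432 (0.92 ± 0.18, 0.00964). Farsa rose from 91.9, 26.4 and 48.6 to 151, 164 and 110 (1.04 ± 0.24, adjusted p = 0.0176 in limma). Its younger mdx signals were all under 100, the filter for the mean signal. Wars, the tryptophanyl enzyme, fell from 1534, 1189 and 1564 to 888, 711 and 694 (-0.87 ± 0.17, adjusted p = 0.00843 in limma), and the other that fell was Eprs, the glutamyl-prolyl enzyme (-0.63 ± 0.16, 0.0267), which is named after its values were seen. The control means of Hars, Sars and Wars, at 421, 1148 and 984 at 8 weeks and 474, 1070.0 and 914 at 10.5 months, lay between the younger and the older mdx means.

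Of the other ATF4 targets and partners, Slc7a5, a subunit of the large neutral amino acid transporter, rose by 1.53 ± 0.41 (adjusted p = 0.0307 in limma), from 46.1, 36.2 and 124 to 249.8, 292 and 187. Its control arrays at 8 weeks, at 218, 44.5 and 198, spread more widely than either mdx group. The low Slc7a5 readings at 8 weeks, 44.5 in control and 46.1 and 36.2 in mdx hearts, all came from arrays of wide signal range. The remaining mdx array of that age read 124, and the younger mdx mean, 68.7, lay under the filter for the mean signal. In older mdx hearts the array of wide signal range gave the lowest reading, 187. Gpt2, the mitochondrial alanine transaminase, fell from 248, 253 and 261 to 153, 91.3 and 150.3 (-0.83 ± 0.17, adjusted p = 0.0106 in limma), and Cebpb fell by 0.68 ± 0.20 on the log2 scale (0.0438). In the unfolded protein response Ern1, the sensor IRE1, fell from 209, 248 and 233 to 94.6, 138 and 103 (-0.88 ± 0.21, adjusted p = 0.0215 in limma), and Derl3, a factor of protein export from the endoplasmic reticulum, by 0.70 ± 0.19 (0.0362). The mitochondrial protease Yme1l1 rose by 0.70 ± 0.17 (adjusted p = 0.0223 in limma), and Clpx, the unfoldase of the mitochondrial Clp protease, fell by 0.49 ± 0.15 (0.0475). The calls of Derl3, Cebpb and Clpx were kept in 14, 9 and 5 of the 22 alternatives, and that of Wars in all 22. The eIF2, folate, glycine and serine, and caspase lists had 0 called genes in this comparison.

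**Figure D4:**
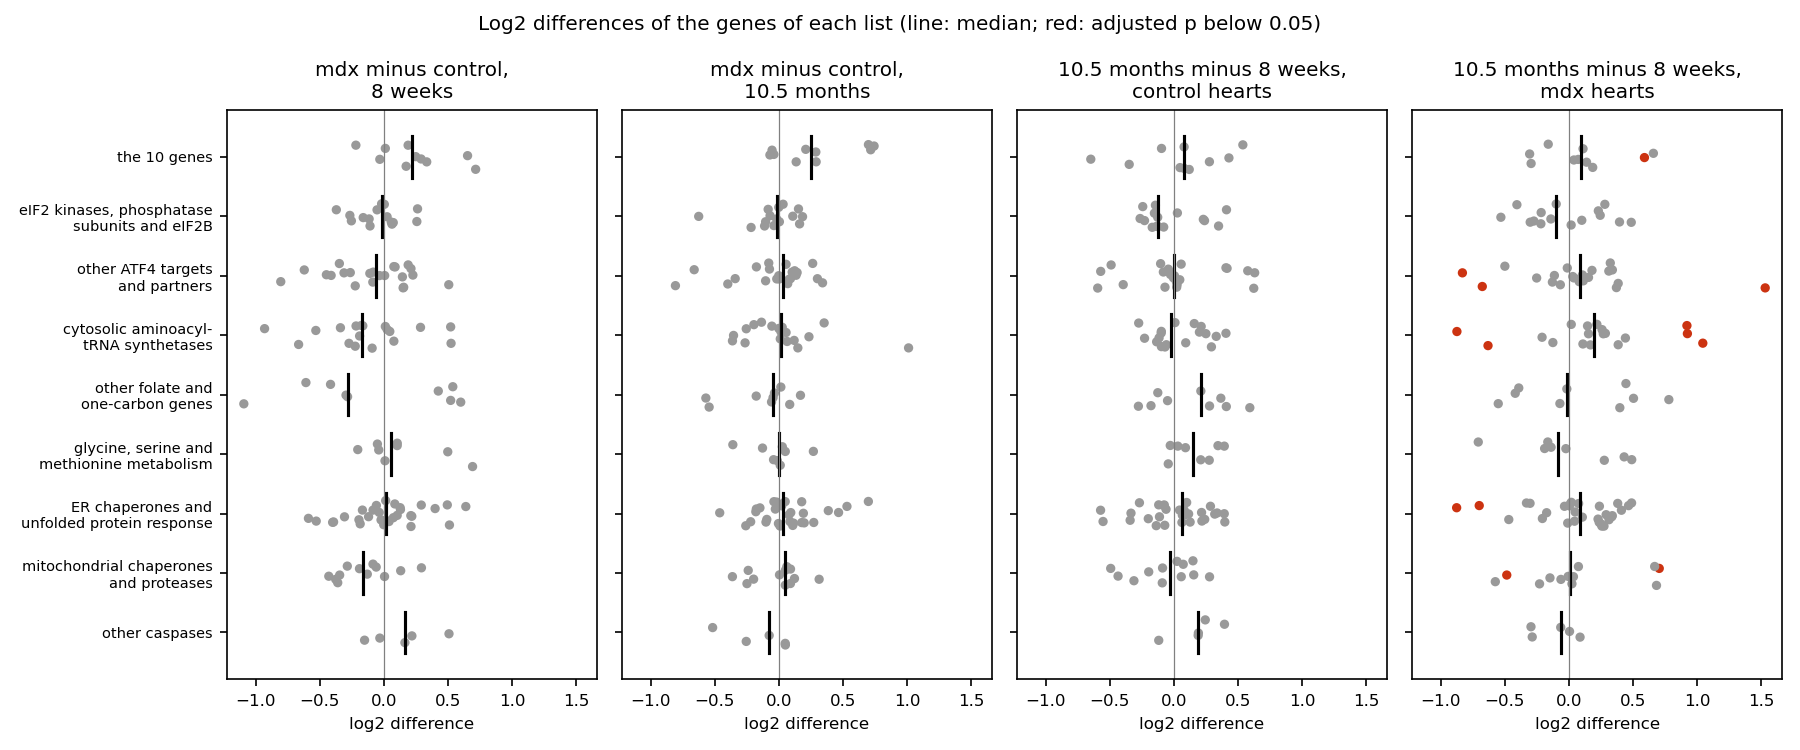
Log2 difference of each tested gene of the 8 lists (points) with the list median (line), for mdx minus control at each age and for age in each genotype, with genes of an adjusted p below 0.05 in red. The 12 called list genes all lie in the comparison of ages in mdx hearts, 5 above and 7 below 0. In the top row Asns is red in that comparison.

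The genes whose log2 signal followed the brightest Mthfd2 probe set most closely over the 12 arrays, out of 8851 compared, were Tgfb2, a TGF-beta ligand (Pearson r = 0.89), Spon2, a secreted matrix protein (0.88), Lox, a collagen cross-linking enzyme (0.87), Sec14l2, a lipid-binding protein (0.85), and Eif1a, a translation initiation factor (0.85). Against the second Mthfd2 probe set Spon2 ranked 2 (r = 0.85), whereas Tgfb2, Lox, Eif1a and Sec14l2 ranked 155, 162, 359 and 400. The mdx minus control differences of Spon2 were 0.41 and 0.74, and those of Tgfb2 0.46 and 0.87. Among the other 9 genes of the set, Asns was most like Mthfd2 (r = 0.73, rank 59), followed by Casp12 (0.63, rank 203), Psat1 (0.58, rank 304) and Atf4 (0.50, rank 602), and Ddit3 was least like it (-0.15). All arrays share the 4-group structure, so these coefficients describe these 12 arrays.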

How the data were processed

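Total RNA of 12 mouse heart samples was measured on Affymetrix MOE430A arrays by a standard Affymetrix protocol, per the labels. The deposited values are intensity on a linear scale, with 22690 probe sets on each array, which the authors had scaled, since the trimmed mean was 1500.58 to 1500.91 on every array of the deposited table. The summarising software and detection calls are not given in the sources used here. Every column of values belongs to a sample.

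Signals were rescaled to give every array a trimmed mean of 500 (2% off at each end), and the deposited intensity was analysed as log2(signal + 32), which understates fold changes of dim genes. Leaving out 64 control probe sets and those with a mean under 100 left 14932 probe sets for 8852 genes. Genes came from the platform annotation, which gave 1 gene for 20393 probe sets, several for 691 and none for 1606, with 20364 symbols matched through the gene ID. In R 4.3.3, limma 3.58.1 was run with 1 mean for each of the 4 groups on all 12 arrays (8 residual and 5.20 prior degrees of freedom). Adjusted p-values are Benjamini-Hochberg over all tested probe sets, with calls below 0.05. The fit was checked on simulated data. Precision is limited by 3 arrays per group.

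The members and lists were chosen with earlier results of these data known. All 10 members are named. From each list, up to 4 called genes with the smallest p, or otherwise the gene with the smallest p, could be named. There were 22 alternatives, 1 of them (without the 4 arrays of wide signal range) chosen after seeing the data. They covered offset, floor, filter, quantile normalization, the groups in the fit, blocks, the mean of probe sets and leaving out each of the 12 arrays. Replicate numbers did not pair the arrays, so no block is in the fit.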

Additional observations from a re-analysis of the deposited data

How the results depend on the processing

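The median mdx minus control difference of the 10 genes kept its direction under all 22 alternatives. It was 0.15 to 0.32 for 8 weeks and 0.18 to 0.32 for 10.5 months when 1 array was left out. The genes were chosen with these comparisons in view, so this describes the set and is no test of it. No comparison of ages in control hearts gave a call among the 10 under any alternative. The 1 gene called with age in mdx hearts, Asns, was 0 with only the groups compared and 0 without the 4 arrays of wide signal range (1 mdx array left at 8 weeks), and 0 to 1 when 1 array was left out. Calls over all probe sets in mdx minus control at 8 weeks fell from 343 to 23 with only the groups compared, and at 10.5 months they were 7, or 3 without the 4 wide arrays. With age they went from 22 to 7 in control and from 1706 to 565 in mdx hearts with only the groups compared, and to 12 and 727 without the wide arrays. When 1 array was left out, the 4 counts were 42 to 308, 1 to 12, 7 to 35 and 598 to 1883 in that order. Same-numbered arrays deviated from their group means with a correlation of -0.129 to 0.135 over 18 pairs, only 2 above 0.1, and 4 of 12 arrays correlated best with their own number, so the numbers share no more than a label. With the replicate number as a block, the medians of the 10 genes stayed at 0.22 and 0.25, calls over all probe sets were 176 at 8 weeks and 3 at 10.5 months, 1 of the 10 genes was called with age in mdx hearts (Asns) and 0 in control hearts. Casp12 at 8 weeks was 0.44 when its probe sets were averaged. Psat1 and Psph did not reach the filter at 200 and have no value there. Signals near 100, as for Psat1 and Psph, lie close to the filter and limit what can be seen for them.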
